A study of Arabidopsis thaliana with 36 samples.

Results

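UDP-glucosyltransferases (UGTs) are the enzymes that move a sugar, usually glucose from UDP-glucose, onto small molecules. The plant family takes hormones, phenylpropanoids, flavonoids, sterols and foreign compounds as acceptors, and the glucosides formed are as a rule more soluble, less active and ready for storage in the vacuole. Beta-glucosidases can set the acceptor free again. In roots the family acts on abscisic acid, cytokinins, auxins and salicylic acid, and on monolignols, the alcohols from which lignin is built. The members are the probe sets of the ATH1 array that map to exactly 1 gene whose symbol is UGT followed by a digit, and 47 of 22746 probe sets that are not controls met this rule. Each of the 47 stood for a different Arabidopsis thaliana gene, and the numbers after UGT put 9 members in UGT71, 4 in UGT72, 7 in UGT73, 3 in UGT74, 8 in UGT76, 3 in UGT78, 5 in UGT84, 5 in UGT85 and 1 each in UGT80, UGT87 and UGT88.

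The study asked how cell identity shapes the response of the root to salt. Protoplasts of Columbia seedling roots, 6 days after germination, were sorted by GFP fluorescence into 6 populations: epidermis with lateral root cap (WER::GFP, called epidermis here), columella (PET111), cortex (CORTEX), endodermis with quiescent centre (SCR::GFP, called endodermis), stele (WOL::GFP) and protophloem (S32). Roots stayed on standard medium or spent 1 h on 140 mM NaCl before the walls were digested, so every group, the controls included, carried a reporter and went through digestion, sorting and a two-cycle amplification of its RNA. Each of the 12 groups of population by medium had 3 arrays, and nothing in the labels says that the arrays of a group came from separate plants, so a p-value here reflects only how arrays varied, which may be technical.

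Signals are linear MAS5 intensities, scaled by the authors to the same trimmed mean (250.02 to 250.03) on all 36 arrays, with array medians of 62.1 to 95.6. Of 30 cell type marker genes, 9 had a probe set of their own. The cortex marker AT1G09750 read 2650.0 ± 413 (SD, n = 3) in cortex on standard medium and at most 57.0 in the mean of any other population there, but only 235 ± 27.2 in cortex after salt. The other cortex marker, AT1G62500, read 16.4 in cortex on standard medium and 37.7 in protophloem, so it did not mark cortex. On standard medium the stele marker LHW was highest in stele (596, next 402 in endodermis) and OPS in protophloem (72.5, next 32.2 in stele). The means of other markers lay close to that of a second population: PHV 381 in stele and 373 in columella, AT4G28100 447 in endodermis and 383 in cortex, and AGL42 153 in endodermis and 144 in protophloem. EXPA7 read 499 in epidermis and, through 1 array, a mean of 439.6 in stele. The other epidermis marker, EXPA18, read 390 in epidermis and, through the same array, more in stele (436). With salt LHW was highest in protophloem (425, against 256 in stele) and AGL42 in cortex (357, against 182 in endodermis). EXPA7 then read 376 in cortex, 340 in stele and 319 in epidermis, and EXPA18 201 in epidermis, 162 in stele and 158 in cortex. OPS (129), PHV (331) and AT4G28100 (292) were highest with salt in protophloem, stele and endodermis. No root cap or companion cell marker had a probe set of its own. The summed signal of the 2 measured epidermis markers of 5, EXPA7 and EXPA18, was highest on replicate 3 in 11 of 12 groups. It reached 2213 on replicate 3 of stele on standard medium, against 202 and 212 on the other two arrays, and 1371 on replicate 3 of salt-treated stele, against 62.8 and 71.2. Replicates 1 and 2 were also the most alike in 10 of 12 groups, so counts without replicate 3 stand beside the main counts below. The 5'/3' signal ratio of the GAPDH control probe sets, an index of how complete the amplified RNA was, differed between media in epidermis (mean 1.52 on standard medium, 0.248 with salt), cortex (0.444 and 0.150) and protophloem (0.0499 and 0.162).

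With 1 h of salt most of the members that changed went up. A member was called higher or lower when the Benjamini-Hochberg adjusted p from limma, over all 17633 probe sets tested, was under 0.05. Of the 47 members, 37 passed the filter on low values, a signal above the 40th percentile of its array on at least 3 arrays, and a member can pass through the very group in which it is high. In the mean response over the 6 populations, 18 of the 37 were called higher, or 48.6%, against 20.8% of all probe sets tested, and 2 were called lower, or 5.41%, against 28.8%. The median change of the 37 was 0.34 on the scale of log2(signal + 16), on which all changes are given, and that of all probe sets tested was -0.09. A rise of at least 2-fold in the mean response was called for 8 members (21.6%), against 5.29% of all probe sets, and a fall of that size for 0 members (0 also at an unadjusted p under 0.05), against 1.72%. In a sorted population, fewer cells that express a gene and less RNA of it per cell cannot be told apart.

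Taken population by population, the 37 members gave 61 calls out of 222, of which 54 were higher and 7 lower. Epidermis had 16 members called higher, or 43.2%, against 15.6% of all probe sets, and 0 called lower, against 12.6%. Protophloem had 13 higher, against 11.8% of all probe sets, and 1 lower, against 12.4%. In stele 9 members were called higher, against a background of 11.5%, and 2 lower, against 13.9%. In columella the counts were 5 higher, against 5.27%, and 0 lower, against 8.93%. Endodermis, where few probe sets of any kind were called, had 2 higher, against 1.5%, and 0 lower, against 1.02%. At an unadjusted p under 0.05 in limma, 0 members were lower in epidermis, 1 in columella and 2 in endodermis. The shares of all probe sets are for adjusted p, and no share is given for unadjusted counts, here or further on. Cortex was the population in which the members' share of rises (9, or 24.3%) was near that of all probe sets (22.4%), and 4 members were called lower there, or 10.8%, against 15.7%. After quantile normalization, which shifted the median change of all probe sets by -0.18 in cortex, 0.20 in columella and -0.11 in epidermis, cortex had 5 members higher of 10 called in place of 9 of 13, and columella still had 5 of 5. The share of all cortex calls that were rises went from 58.8% to 44.6% with it, and that of all columella calls from 37.1% to 55.8%.

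**Figure D1:**
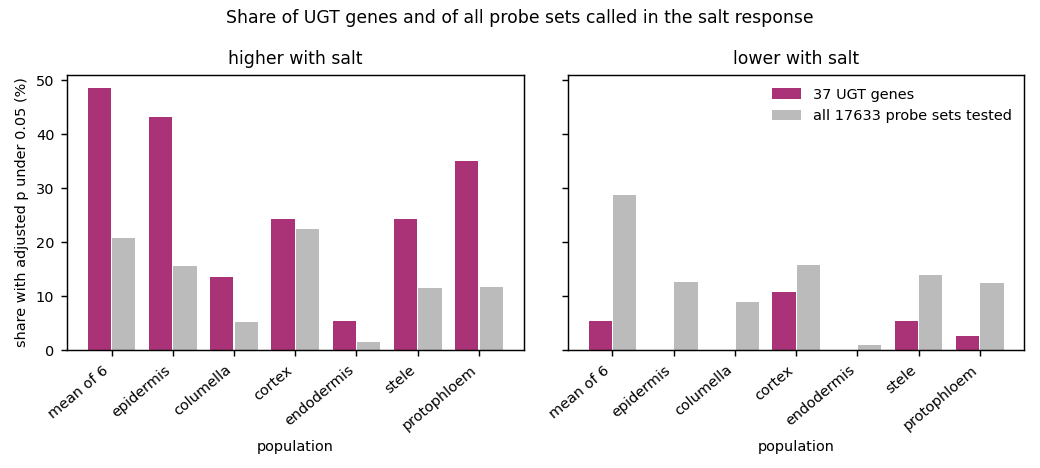
Share of the 37 tested UGT genes (purple bars) and of all 17633 probe sets tested (grey bars) called higher (left) or lower (right) with salt, in percent, for the mean response and each population. In the mean response 48.6% of the UGT genes and 20.8% of all probe sets were called higher, and 5.41% against 28.8% lower.

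Across populations, 24 of the 37 members were called higher in at least 1 population (64.9%, against 40.5% of all probe sets) and 7 lower in at least 1 (18.9%, against 43.4%). The 4 called in both directions made 10.8%, against 10.4%, and the 10 called in none 27%, against 26.6%. UGT87A2 and UGT73C7 were called higher in all 6 populations (background 0.414%), and UGT73D1 in 5. With replicates 1 and 2 alone the mean response gave 18 members higher and 4 lower, against 23.1% and 34.4% of all probe sets. The same arrays gave 17 higher and 2 lower in epidermis (background 18% and 15.6%), 7 and 1 in columella (11.1% and 23.2%) and 10 and 12 in cortex (27.2% and 22.1%). In endodermis they gave 10 and 3 (4.91% and 6.26%), in stele 12 and 2 (16.9% and 23.9%) and in protophloem 14 and 1 (14.5% and 19%). Of the 81 calls of single members in these 7 comparisons, 76 held without replicate 3. With the GAPDH ratio of each array as a covariate, 60 of the 81 held, and the counts became 12 in epidermis (background 16.8%), 6 in cortex (18.1%) and 9 in protophloem (13%). Single arrays moved some of these counts: columella had 2 without replicate 1 on standard medium, cortex 8 without replicate 1 with salt, and protophloem 8 without replicate 2 on standard medium. Endodermis had 1 without its replicate 3 on standard medium and 4 without replicate 3 of stele on standard medium, which changes the spread shared by all groups.

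**Figure D2:**
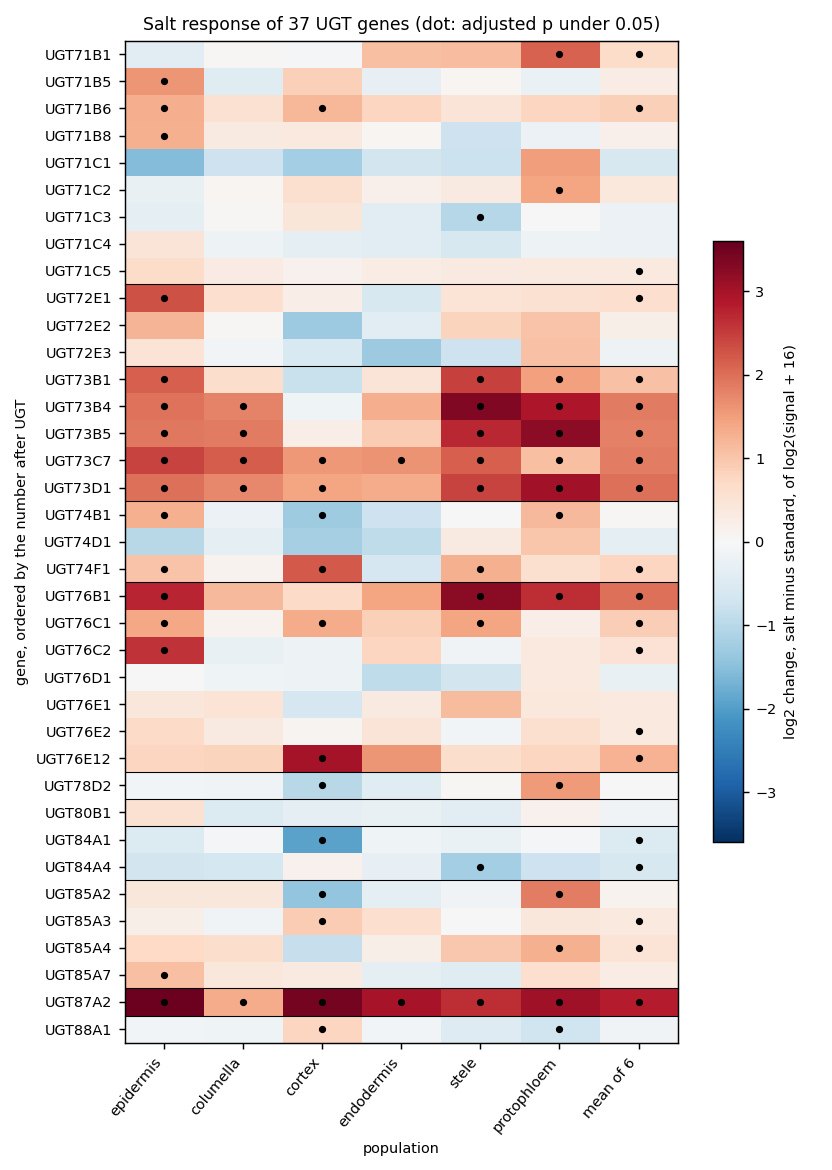
Change with salt of the 37 tested UGT genes (rows, in the order of the number after UGT, with a line between numbers) in the 6 populations and in their mean (columns), as the log2 difference of salt minus standard on the scale of log2(signal + 16), red higher and blue lower. Dots mark an adjusted p under 0.05: UGT87A2 and UGT73C7 carry one in all 6 populations, and the 5 UGT73 genes in the mean.

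UGT87A2, known from mutants for effects on flowering time and on tolerance of abiotic stress, had the largest mean rise of the family, 2.83 ± 0.14 (SE, adjusted p = 4.61e-16). On standard medium its epidermis arrays read 217, 175 and 189.8, and with salt 3227, 3314 and 1315. In cortex the 3 standard arrays lay at 218, 211 and 207 and the salt arrays at 3004, 2599.6 and 1878. The groups were far apart in both populations, and the changes of 3.54 ± 0.35 (SE, adjusted p = 7.57e-09) and 3.43 ± 0.35 (SE, adjusted p = 2.29e-08) correspond to 11.6-fold and 10.8-fold. Endodermis went from 164, 171 and 232 to 2320.0, 1634 and 1043, a change of 2.98 ± 0.35 (SE, adjusted p = 1.92e-06). Stele went from 239, 268 and 337 to 1858, 1792 and 1835, a change of 2.65 ± 0.35 (SE, adjusted p = 3.01e-06). Protophloem was the most uneven, since its salt arrays read 1999, 612 and 879.7 after 84.3, 91.2 and 167 on standard medium, yet no array of one medium reached those of the other. The columella, already high without salt at 748, 1329 and 959.5, read 2522, 2729 and 2275 with it. That change, 1.33 ± 0.35 (SE, adjusted p = 0.0108), was smaller than the mean of the other 5 populations, with a difference of -1.80 ± 0.38 (SE, adjusted p = 0.00817). The columella call of UGT87A2 was lost without replicate 1 (1.14) on standard medium or replicate 2 (1.27) with salt.

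All 5 tested UGT73 members were called higher in the mean response, with a median change of 1.84. UGT73C7 acts on phenylpropanoids and shifts their flow towards hydroxycinnamic acids. Its standard signals were low, at 18.5, 11.5 and 24.8 in stele, 12.3, 17.7 and 11.0 in columella and 21.2, 25.4 and 36.7 in epidermis, and its salt signals in the same order were 142, 124 and 136, 84.0, 172 and 113 and 161, 199.8 and 325. The arrays of the media did not overlap in these populations, and the changes were 2.15 ± 0.38, 2.19 ± 0.38 and 2.44 ± 0.38 (SE, adjusted p = 1.24e-05). In endodermis UGT73C7 read 50.2, 46.2 and 35.4 and then 248, 143 and 126, which made it, with UGT87A2, one of the only 2 members called there; the adjusted p was 0.0136. The protophloem call of UGT73C7, 1.07 ± 0.38 (SE, adjusted p = 0.0375), was the least certain, since standard arrays of 3.28, 56.1 and 25.6 overlapped salt arrays of 72.9, 40.7 and 90.1, and the change without replicate 3 of either medium, 0.93, was not called. The call was also lost without replicate 1 (0.57) or 3 (1.12) on standard medium or replicate 1 (1.00) or 3 (0.88) with salt, and that in endodermis without replicate 3 (1.50) on standard medium or replicate 1 (1.34) with salt. With the GAPDH covariate the cortex call of UGT73C7 was lost (1.18, adjusted p = 0.0594).

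UGT73D1, the neighbour of UGT73C7 in the genome, rose by 1.99 ± 0.21 (SE, adjusted p = 4.82e-09) in the mean. Its largest change was in protophloem, from 27.5, 52.2 and 28.9 to 866, 262 and 273, or 3.02 ± 0.51 (SE, adjusted p = 0.000118). In stele the standard arrays read 45.9, 35.3 and 362 and the salt arrays 538, 766 and 415. The third standard array, the one with the high epidermis markers, stood far above its partners there, and without replicate 3 the stele change was 3.54 in place of 2.43. In epidermis itself UGT73D1 read 27.9, 16.7 and 38.1 on standard medium, and the source of the high stele array was not tested. UGT73D1 was also called in epidermis (1.98 ± 0.51), columella (1.73 ± 0.51) and cortex (1.41 ± 0.51), although the epidermis and cortex calls were lost with the GAPDH covariate. Single arrays also mattered, since the columella call was lost without replicate 1 (1.33) or 2 (1.72) on standard medium or replicate 1 (1.77) or 2 (1.37) with salt, and the cortex call without replicate 2 (1.29) or 3 (1.33) on standard medium or replicate 1 (1.29) or 2 (1.47) with salt. In endodermis the change of 1.35 missed the threshold (adjusted p = 0.191).

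UGT73B4, which can conjugate foreign compounds such as explosives, and UGT73B5, needed for full resistance to the bacterium Pseudomonas syringae, are adjacent genes with overlapping annotations, so their probe sets cannot be taken as independent. Both rose in the mean, UGT73B4 by 1.86 ± 0.16 (SE, adjusted p = 1.29e-10) and UGT73B5 by 1.80 ± 0.22 (SE, adjusted p = 1.07e-07). In protophloem UGT73B4 read 78.8, 63.3 and 60.9 without salt and 818, 715 and 390.0 with it, and UGT73B5 43.7, 54.5 and 59.3 and then 1352, 1092 and 150.3. Every salt array lay above every standard array for both genes, though the third salt array of UGT73B5 lay far below the other two. In stele UGT73B4 went from 56.3, 36.9 and 206 to 898, 1083 and 846, a change of 3.33 ± 0.40 (SE, adjusted p = 8.08e-07) and 10.1-fold. For UGT73B5 the same arrays gave 41.6, 22.2 and 281 and 507, 488 and 668, or 2.70 ± 0.55 (SE, adjusted p = 0.000733). Epidermis and columella, the populations with the highest standard levels of both genes, were called for both as well, although the epidermis call of UGT73B5 was lost with the GAPDH covariate (1.06). UGT73B4 reached 3722, 4159.8 and 3147 in columella from 737, 1294 and 1179, and UGT73B5 2264, 3620.3 and 1599 from 533, 597 and 793. The columella call of UGT73B5 was lost without replicate 1 (1.75) or 2 (1.83) on standard medium or replicate 1 (1.90) or 2 (1.57) with salt. Neither gene changed in cortex by the test: UGT73B4 read 436, 524 and 415 and then 309, 275 and 777, with a change of -0.16 ± 0.40 (SE, adjusted p = 0.766), and UGT73B5 had 0.24 ± 0.55 (SE, adjusted p = 0.753).

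UGT73B1 rose in epidermis (2.16 ± 0.48), stele (2.46 ± 0.48) and protophloem (1.49 ± 0.48), the last of these not with the GAPDH covariate (1.08) and not without replicate 2 (1.30) on standard medium or replicate 1 (1.40) or 3 (1.42) with salt. Its stele arrays read 26.6, 25.3 and 259 on standard medium and 398, 382 and 467 with salt. In cortex, where it started from 517, 436 and 391, salt arrays of 341, 139 and 314 gave -0.81 ± 0.48 (SE, adjusted p = 0.177), a difference in the other direction that did not pass the test. UGT73C1 and UGT73C2, the former a cytokinin glucosyltransferase, were not tested: their highest signals on any array were 27.7 and 37.2.

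**Figure D3:**
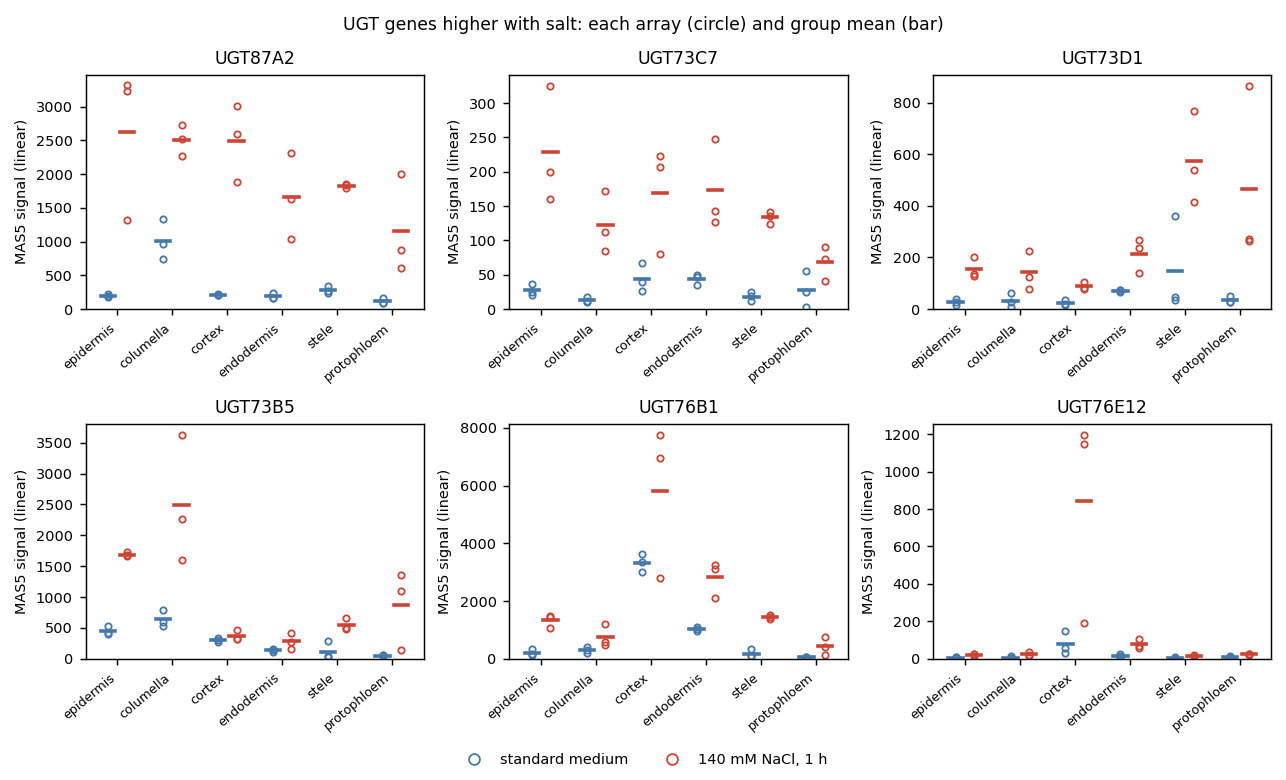
Linear MAS5 signal of 6 UGT genes called higher in the mean salt response, in each population, on standard medium (blue circles) and after 1 h on 140 mM NaCl (red circles), 1 circle per array and a bar at the mean of 3, with axes that start at 0 and differ between genes. UGT87A2 lies above its standard arrays in all 6 populations, while UGT73B5 in cortex has salt arrays that overlap the standard ones.

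In the UGT76 group 5 of 7 tested members rose in the mean response. UGT76B1, which glucosylates the defence signals salicylic acid and isoleucic acid, rose by 1.99 ± 0.20 (SE, adjusted p = 1.48e-09). Its stele arrays went from 94.5, 80.7 and 328 to 1430.3, 1380.0 and 1516, a change of 3.24 ± 0.48 (SE, adjusted p = 1.8e-05) and 9.44-fold. In epidermis they went from 115, 157 and 332 to 1458, 1078 and 1485, a change of 2.75 ± 0.48 (SE, adjusted p = 5.95e-05). Protophloem, the population with the lowest standard signals at 21.9, 46.3 and 74.8, reached 413, 144 and 770.1. All 3 of these populations were called. Endodermis read 1104, 1035 and 970.2 and then 2106, 3125 and 3243 without overlap, but its change of 1.41 ± 0.48 (SE, adjusted p = 0.127) was not called. Cortex had the highest standard level of UGT76B1, 2993, 3623 and 3352, and salt arrays of 7736, 6942 and 2802 that lay on both sides of it.

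UGT76C1 and UGT76C2 attach glucose to the ring nitrogen of cytokinins. UGT76C1 rose by 0.89 ± 0.12 (SE, adjusted p = 8.13e-07) in the mean, with calls in epidermis, cortex and stele, the first of them lost with the GAPDH covariate (0.96, adjusted p = 0.137). Its stele arrays were 49.0, 57.0 and 47.4 and then 163, 139 and 189, and its cortex arrays 99.9, 77.9 and 70.0 and then 240.2, 335 and 149. UGT76C2 followed another pattern, since its rise was called in epidermis alone, from 9.08, 3.53 and 15.7 to 183, 175 and 72.6, or 2.59 ± 0.38 (SE, adjusted p = 5.62e-06). The standard arrays there lay below the 40th percentile of their arrays, so the fold depends on the 16 added before taking logs. The epidermis response of UGT76C2 exceeded the mean of the other 5 by 2.49 ± 0.42 (SE, adjusted p = 0.00015). In the columella, where UGT76C2 was highest on standard medium, its arrays read 363, 782 and 643 and with salt 516, 272 and 716, which overlap.

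UGT76E12 rose by 1.26 ± 0.18 (SE, adjusted p = 1.72e-06) in the mean, and cortex was its only called population. The cortex arrays read 32.2, 56.9 and 150.0 on standard medium and 1148, 1194 and 189 with salt, a change of 2.98 ± 0.45 (SE, adjusted p = 1.18e-05). Replicate 3 had the highest standard and by far the lowest salt signal, so that without it the change was 4.32. Outside cortex and endodermis the salt arrays stayed at 13.8 to 38.1, above every standard array of the same population but near the low end of the signal range. UGT76E2 also rose in the mean, by 0.34 ± 0.13 (SE, adjusted p = 0.0332), a call lost in 14 of 45 alternative fits, 11 of them fits without a single array. UGT76E1, which glucosylates hydroxylated jasmonic acid, and UGT76D1, which acts on hydroxylated salicylic acid, were called in no population, and their mean changes were 0.36 ± 0.19 and -0.26 ± 0.12. UGT76E11, next to UGT76E12, was not tested and exceeded the 40th percentile on 1 array.

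Of the monolignol glucosyltransferases, UGT72E1, which acts on coniferyl aldehyde, rose in the mean by 0.60 ± 0.13 (SE, adjusted p = 0.000388) and was called in epidermis alone. The 3 epidermis arrays went from 107, 114 and 166 to 776, 604 and 691, a change of 2.30 ± 0.32 (SE, adjusted p = 2.72e-06) and 4.92-fold, and this exceeded the mean of the other 5 responses by 2.04 ± 0.35 (SE, adjusted p = 0.000209). Columella arrays of 239, 181 and 336 and 302, 418 and 439.9 overlapped. UGT72E2, which glucosylates coniferyl and sinapyl alcohols, was called in no population. Its epidermis arrays were 1445, 1404 and 1456 and 3858, 3023 and 3301, without overlap but with an adjusted p of 0.145, and its cortex arrays 4306, 3498 and 2463 and 1531, 875 and 1741, without overlap in the other direction. UGT72E3, with the same acceptors, was likewise not called; in endodermis, where it was highest, the arrays read 1462, 1492 and 3504 and then 628, 599 and 1282, with a change of -1.31 ± 0.51 (SE, adjusted p = 0.202). UGT72B3, the fourth member of the number group, was not tested.

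Of the 9 UGT71 members, all tested, 3 rose in the mean response and none fell. UGT71B6 and UGT71C5 glucosylate abscisic acid, the hormone of water deficit, and so inactivate it. UGT71B6 rose by 0.84 ± 0.15 (SE, adjusted p = 3.63e-05), with epidermis arrays of 2.65, 1.39 and 0.725 on standard medium and 24.1, 26.8 and 31.6 with salt. These signals are near background: only 3 of 36 arrays put UGT71B6 above the 40th percentile. They were salt arrays, 2 of columella and 1 of protophloem. UGT71B6 thus passed the filter only through the medium in which it is called higher. The mean change of UGT71B6 was 2.12 with 1 added to the signal and 0.33 with 64. Its calls in epidermis and cortex were lost with the GAPDH covariate (1.16 and 1.10, adjusted p = 0.156 and 0.0869). UGT71C5 rose by 0.34 ± 0.12 (SE, adjusted p = 0.0164), with a change of one sign in all 6 populations (0.15 to 0.65) but a call in none, and the call of the mean was lost with the GAPDH covariate. UGT71B1, the third of the group to rise, had a mean change of 0.65 ± 0.23 (SE, adjusted p = 0.0213). It was called in protophloem only, where the salt arrays read 66.0, 80.7 and 419 after 50.6, 6.49 and 12. The spread of these salt arrays was wide, and without replicate 3 the mean response of UGT71B1, 0.28, was not called. The protophloem call was lost without replicate 2 (1.81) on standard medium or replicate 3 (1.36) with salt, with the GAPDH covariate (0.72, adjusted p = 0.409) and in a fit of its own 6 arrays (adjusted p = 0.0507).

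Some UGT71 members were called in a single population without a call in the mean. UGT71B5 rose in epidermis, from 60.1, 41.2 and 45 to 177, 176 and 177, or 1.59 ± 0.37 (SE, adjusted p = 0.00148). UGT71B8, a close relative of UGT71B6, rose there from 4.16, 3.20 and 12.7 to 34.3, 34.3 and 45.5, again near background. It exceeded the 40th percentile on 3 arrays, 1 of epidermis and 2 of columella, all with salt. UGT71B8 thus passed the filter only through the medium in which it is called higher. UGT71C2 rose in protophloem, from 20.0, 6.90 and 45.2 to 73.7, 81.6 and 97.0, but not with the GAPDH covariate (0.75) and not without replicate 2 (1.09) on standard medium. UGT71C3, which glucosylates methyl salicylate, fell in stele from 174, 188 and 223 to 78.6, 64.9 and 124, or -1.04 ± 0.38 (SE, adjusted p = 0.0427), a call that held in 8 of 16 alternative fits and was lost without replicate 1 (-1.11), 2 (-1.06) or 3 (-0.95) on standard medium or replicate 1 (-0.98) or 2 (-0.87) with salt. UGT71C1 and UGT71C4 were called nowhere. UGT71C1 had epidermis arrays of 1024, 1063 and 1036 and then 244, 235 and 679, a separation whose change of -1.57 ± 0.83 (SE, adjusted p = 0.168) did not pass, and the third array lay well above the other two.

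UGT74F1, which glucosylates salicylic acid, rose by 0.77 ± 0.14 (SE, adjusted p = 3.73e-05) in the mean. Its cortex arrays went from 4.94, 3.72 and 3.20 to 52.9, 67.8 and 122, or 2.22 ± 0.34 (SE, adjusted p = 1.62e-05), and its stele arrays from 65.1, 36.4 and 79.5 to 195, 194 and 118, or 1.29 ± 0.34 (SE, adjusted p = 0.007). In epidermis the arrays read 2.52, 12.6 and 2.54 and then 30.3, 28.8 and 24.8, a call lost in 7 of 16 alternative fits. The standard signals of cortex and epidermis lay near background. Single arrays that decided the epidermis call show in its loss without replicate 1 (0.93) or 3 (0.93) on standard medium or replicate 1 (1.00) or 2 (1.02) with salt, and the stele call was lost without replicate 2 (1.04) on standard medium. In endodermis the arrays of UGT74F1 read 184, 176 and 466 and then 127, 155 and 203 and overlapped, and the response there differed from the mean of the other 5 by -1.64 ± 0.38 (SE, adjusted p = 0.0471). UGT74B1 makes the core structure of glucosinolates, sulphur compounds of defence, and it moved in different directions. It rose in epidermis from 199.9, 141 and 149 to 427, 407 and 404 and in protophloem from 579, 366 and 756 to 2258, 956 and 871. In cortex it fell, -1.28 ± 0.40 (SE, adjusted p = 0.0129), with standard arrays of 692, 1076 and 1546 that overlapped salt arrays of 313, 263 and 905, and both the cortex and the protophloem call were lost with the GAPDH covariate. The cortex call of UGT74B1 was lost without replicate 3 (-1.004) on standard medium or replicate 1 (-1.07) or 2 (-0.95) with salt, its protophloem call without replicate 1 (1.20) or 2 (0.89) on standard medium or replicate 1 (0.73) with salt and its epidermis call without replicate 2 (1.18) or 3 (1.22) on standard medium. UGT74D1, which acts on auxins, had lower salt than standard arrays in epidermis (504, 351 and 412 against 199, 159.6 and 248) but was called nowhere, and its change there was -1.01 ± 0.58 (SE, adjusted p = 0.208).

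UGT78D2 puts glucose on the 3 position of flavonols and anthocyanidins. It fell in cortex, from 2244, 1622 and 993 to 814, 711 and 759, or -0.999 ± 0.32 (SE, adjusted p = 0.0139), and rose in protophloem, from 149, 97.1 and 170.2 to 441, 369 and 473, or 1.54 ± 0.32 (SE, adjusted p = 0.00078). The arrays of the media did not overlap in either population, and the cortex call was lost with the GAPDH covariate (-0.65) and without replicate 1 (-0.73) on standard medium. Its relatives UGT78D1 and UGT78D3, which put rhamnose and arabinose on the same position of flavonols, were not tested. UGT78D1 read 58.5, 55.7 and 16.8 in epidermis on standard medium and at most 36.2 on any salt array. UGT80B1, a sterol glucosyltransferase, was called in no population; its 3 epidermis arrays went from 126, 136 and 116 to 175, 193 and 202 with an adjusted p of 0.0698.

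Both tested UGT84 members, enzymes that form glucose esters of hydroxycinnamic acids, fell in the mean response, the only 2 of the tested members to do so. UGT84A1 fell in cortex, from 380.3, 151 and 72.9 to 58.4, 58.2 and 3.36, or -1.93 ± 0.46 (SE, adjusted p = 0.00165), and by 1.28 on the log2 scale without the third salt array, the low one. It exceeded the 40th percentile on only 4 arrays of 36, the 3 of cortex and 1 of epidermis on standard medium. It thus passed the filter through the group in which it was high, the one from which its cortex fall starts. Its mean change of -0.49 ± 0.19 (SE, adjusted p = 0.0287) was not called with replicates 1 and 2 alone (-0.42). Of the fits without a single array 4 lost it too, 2 of them without cortex arrays. UGT84A4 had a mean change of -0.57 ± 0.13 (SE, adjusted p = 0.000684) and was called in stele, where standard arrays of 58.4, 79.8 and 146 stood above salt arrays of 8.33, 35.4 and 56.2. That call, -1.23 ± 0.32 (SE, adjusted p = 0.00649), was lost without replicate 1 (-0.79) with salt. UGT84A3, UGT84B1, which acts on the auxin indole-3-acetic acid, and UGT84B2 were not tested.

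In the UGT85 group UGT85A3 and UGT85A4 rose in the mean response, by 0.34 ± 0.13 (SE, adjusted p = 0.0254) and 0.49 ± 0.17 (SE, adjusted p = 0.0141). The mean rise of UGT85A3 was lost without replicate 1 of stele on standard medium (0.29) and without replicate 1 of cortex with salt (0.28). UGT85A2 was not called in the mean (0.13 ± 0.15) and went both ways in single populations. Its cortex arrays fell from 1659, 1451 and 1083 to 477, 251 and 1073, or -1.41 ± 0.36 (SE, adjusted p = 0.00285), and its protophloem arrays rose from 136, 87.3 and 123 to 693, 386 and 337, or 1.84 ± 0.36 (SE, adjusted p = 0.000474). Neither pair of groups overlapped, though the third cortex array with salt came close to the lowest standard one, and the cortex call was lost without replicate 2 (-0.93) with salt. UGT85A4 rose in protophloem, from 52.2, 57.1 and 56.5 to 267, 97.5 and 144, a call lost without replicate 2 (1.30) on standard medium or replicate 1 (0.92) with salt, and also with the GAPDH covariate (1.01, adjusted p = 0.176) and with 1 added to the signal (adjusted p = 0.0827), which ended the call of its mean as well (adjusted p = 0.095). UGT85A3 was called in cortex, from 20.8, 14.3 and 30.4 to 97.9, 46.3 and 34.2, and UGT85A7 in epidermis, from 7.75, 23.7 and 6.36 to 43.2, 47.8 and 36.6, both from standard signals near background. UGT85A3 was no longer called without replicate 2 (0.78) on standard medium or replicate 1 (0.59) with salt, nor with the GAPDH covariate (0.92, with 0.34 and adjusted p = 0.0562 in the mean), and UGT85A7 without replicate 1 (0.97) or 3 (0.93) on standard medium or replicate 1 (1.07) or 2 (1.01) with salt. UGT85A5 was not tested. UGT88A1 rose in cortex, from 94.5, 74.5 and 48.2 to 161, 145 and 93.9, and fell in protophloem, from 46.7, 77.7 and 62.5 to 27.7, 24.7 and 43.6, and neither call held with the GAPDH covariate or with quantile normalization. In cortex UGT88A1 also lost its call without replicate 3 (0.55) on standard medium or replicate 1 (0.62) or 2 (0.69) with salt, and in protophloem without replicate 2 (-0.57) or 3 (-0.70) on standard medium or replicate 1 (-0.65) or 2 (-0.60) with salt.

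Whether the response depended on the population was tested for each member with an F-test of the 5 differences between the 6 salt responses. It was called for 18 of the 37 members, or 48.6%, close to the 46.6% of all probe sets. The 5 members with the largest F were UGT73B4 (adjusted p = 0.000334), UGT85A2 (0.000494), UGT72E1 (0.000662), UGT76C2 (0.000835) and UGT74F1 (0.000893). Among the members that rose most, UGT73C7 and UGT73D1 gave no interaction (adjusted p = 0.194 and 0.252), with responses of 1.07 to 2.44 and of 1.35 to 3.02, which does not show that their responses were equal.

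Cortex had the most members whose response differed from the mean of the other 5. Of all 17633 probe sets, 3915 were called above that mean in cortex and 2052 below it. The total for cortex is thus not read as particular to the members. The cortex response lay below the mean of the other 5 for 10 members (27%, against 11.6% of all probe sets). It lay above it for 3 (8.11%, against 22.2%). Leaving out 1 array moved the total of 13 between 9 and 14. The 10 were UGT72E2, UGT73B1, UGT73B4, UGT73B5, UGT74B1, UGT76B1, UGT78D2, UGT84A1, UGT85A2 and UGT85A4. UGT73B4 differed most, by -2.43 ± 0.44 (SE, adjusted p = 0.000265), then UGT73B1, by -2.25 ± 0.52 (SE, adjusted p = 0.00213). The 3 members above the mean of the others were UGT76E12, by 2.07 ± 0.49 (SE, adjusted p = 0.00258), UGT74F1, by 1.73 ± 0.38 (SE, adjusted p = 0.0012), and UGT88A1, by 1.06 ± 0.27 (SE, adjusted p = 0.00421). Beside the cortex results stands the fall of the cortex marker AT1G09750 (-3.40 on the log2 scale). Of the endodermis markers in cortex, AGL42 rose (1.18) and AT4G28100 fell (-1.18). Of the stele markers PHV rose (1.07) and LHW was not called (-0.77). The GAPDH ratio also shifted there (-1.70). The summed epidermis markers ran from 93.6 to 136 on the standard arrays of cortex and from 381 to 837 on the salt arrays. The part of the markers and of the ratio was not tested beyond the fit with the GAPDH ratio. In that fit the difference of UGT73B4 remained called (-2.47) and those of UGT72E2, UGT74B1, UGT76B1 and UGT78D2 were not. Without single cortex arrays the difference was kept in every fit by UGT73B1, UGT73B4, UGT74F1, UGT76E12, UGT85A2 and UGT88A1. It was lost for UGT72E2 without replicate 1 (-1.67) or 2 (-1.82) on standard medium or replicate 1 (-1.95) or 2 (-1.56) with salt, for UGT76B1 without replicate 2 (-1.50) on standard medium or replicate 3 (-1.10) with salt and for UGT84A1 without replicate 1 (-1.16) on standard medium or replicate 3 (-1.08) with salt. For UGT73B5 (-1.78), UGT74B1 (-1.25) and UGT85A4 (-0.88) the loss came without replicate 2 with salt, and for UGT78D2 without replicate 1 (-0.92) on standard medium. With 1 added to the signal the differences of UGT76E12 and UGT84A1 were not called, and with quantile normalization that of UGT88A1.

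In epidermis the response exceeded the mean of the other 5 for 6 members (16.2%, against 8.31%) and was lower for 0 (0 also at an unadjusted p under 0.05 in limma), against 5.82%. These were UGT76C2, UGT72E1, UGT71B5, UGT74B1, UGT71B8 and UGT80B1. The excess of UGT71B5 was 1.60 ± 0.40 (SE, adjusted p = 0.00731). That of UGT80B1 was lost without replicate 1 (0.80) or 3 (0.75) on standard medium or replicate 2 (0.79) or 3 (0.76) with salt, that of UGT74B1 without replicate 2 (1.40) or 3 (1.44) on standard medium or replicate 1 (1.47) or 2 (1.50) with salt and that of UGT71B8 without replicate 2 (1.20) on standard medium. The GAPDH ratio shifted most in this population (-2.75 on the log2 scale). With it as a covariate UGT76C2 and UGT72E1 remained called, at 2.62 and 2.57, and UGT80B1 did not. The excess of UGT80B1 was also lost with quantile normalization and with replicates 1 and 2 only. Quantile normalization ended the call of UGT71B8 too, and 1 added to the signal that of UGT71B5. The excess of UGT71B8 also rests on a member that passed the filter through salt arrays alone. The summed epidermis markers ran from 858 to 912 on standard medium and from 234 to 1054 with salt, where replicate 3 was the high one. Their part in the result was not tested.

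In protophloem 6 members exceeded the mean of the other 5 (16.2%, against 10.1%), among them UGT85A2, by 2.05 ± 0.39 (SE, adjusted p = 0.000593), and UGT78D2, by 1.87 ± 0.35 (SE, adjusted p = 0.000469). The other 4 were UGT71B1, UGT73B4, UGT73B5 and UGT74B1. The GAPDH ratio shifted there by 1.80, and with it as a covariate 0 of the 6 stayed called (UGT85A2 1.70, UGT78D2 1.30, adjusted p = 0.098 and 0.147). Leaving out replicate 2 of protophloem on standard medium left 2 calls, and leaving out replicate 3 of cortex with salt gave 10. In stele the response was larger for UGT73B4, by 1.77 ± 0.44 (SE, adjusted p = 0.0467), the 1 member called there, against 0.448% of all probe sets. That call was lost without replicate 1 (1.57) or 2 (1.35) on standard medium or replicate 1 (1.80), 2 (1.67) or 3 (1.84) with salt, while 5 members were called without replicate 3 of stele on standard medium, the array with the high epidermis markers. In columella UGT87A2 was the only member called, with the smaller response given above (background 2.08%), and it was lost without replicate 2 (-1.59) on standard medium. In endodermis UGT74F1 was the only one (background 0.261%), and its call was lost without replicate 1 (-1.84), 2 (-1.88) or 3 (-1.21) on standard medium or replicate 1 (-1.50) or 2 (-1.63) with salt.

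**Figure D4:**
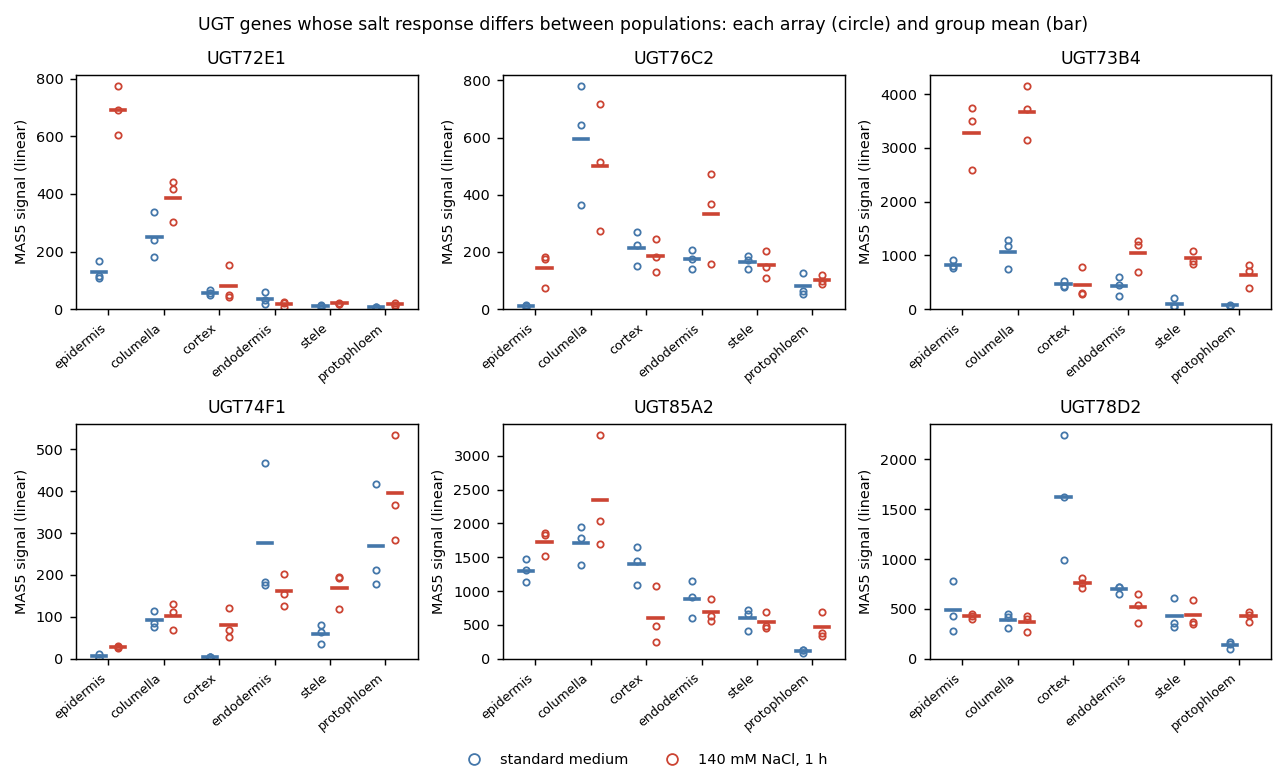
Linear MAS5 signal of 6 UGT genes whose salt response differed between populations, on standard medium (blue circles) and after 1 h on 140 mM NaCl (red circles), 1 circle per array and a bar at the mean of 3, with axes that start at 0 and differ between genes. UGT72E1 and UGT76C2 rise in epidermis, UGT73B4 in epidermis, columella, stele and protophloem, and UGT85A2 and UGT78D2 fall in cortex and rise in protophloem.

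The levels themselves differed between populations on standard medium for 33 of the 37 members by the F-test (89.2%, against 85.5% of all probe sets), and with salt for 31 (83.8%, against 73.1%). Levels are compared here only within a probe set. Cortex was the highest population for 12 members, columella for 11 and endodermis for 10, while epidermis was highest for 2 and stele and protophloem for 1 each. The same population was highest with salt for 24 members. The highest population differed from the next by the test for 10 members. Both populations were picked from the values that the test compared, and the adjusted p does not account for that choice. No share of all probe sets is given for these tallies, which can therefore not be read as particular to the members. For 9 members (24.3%, against 18% of all probe sets) the highest population was at least 2-fold above every other.

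The steepest of these was UGT72E3 in endodermis, with standard arrays of 1462, 1492 and 3504, 11.3-fold above cortex (198, 228 and 88.6, adjusted p = 4.28e-06). It read at most 14.7 on the standard arrays of epidermis and protophloem. UGT84A1 was high in cortex only, 6.55-fold above epidermis (adjusted p = 1.81e-05), and its other 5 populations did not differ between neighbours in the order of level. Its only arrays above the 40th percentile were the 3 of cortex and 1 of epidermis on standard medium. The test of its lead in cortex thus rests on values that also let it pass the filter. UGT71B5 was highest in columella, at 247, 323 and 381 on standard medium, 4.08-fold above protophloem (adjusted p = 5.18e-05). With salt its lead in columella was 1.27-fold over the next population. UGT87A2 was also highest in columella, 3.4-fold above stele, and that lead shrank to 1.02-fold over the next population with salt. UGT76C2 was 2.59-fold higher in columella than in cortex (adjusted p = 0.00502), and far lower in epidermis, the last in its order, than in any other population.

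In cortex UGT76B1 stood 3.17-fold above endodermis, which in turn exceeded columella, and protophloem came last (adjusted p of the neighbours 0.0105, 0.00553 and, for the last pair, 0.025). UGT76E12 was 2.75-fold and UGT78D2 2.18-fold higher in cortex than in endodermis. The lead of UGT76E12 in cortex widened to 7.27-fold with salt, and that of UGT78D2 narrowed to 1.49-fold. On standard medium the lead of UGT76E12 was not called with 64 added (0.77 on the log2 scale), with replicates 1 and 2 alone (0.65) or without replicate 3 of cortex (0.96) or endodermis (1.15). That of UGT78D2 was lost with the GAPDH covariate (0.87) and without replicate 1 of cortex (0.86), and that of UGT76B1 with the covariate (1.42, adjusted p = 0.0577). UGT71C3 was 2.07-fold higher in endodermis than in stele (adjusted p = 0.0362), and its stele arrays in turn exceeded those of protophloem. The first of these differences was lost with 1 added (1.11), without replicate 3 of endodermis (0.81) and without replicate 1 (0.98) or 2 (1.03) of stele, all on standard medium. UGT72E1 fell off in steps, with columella above epidermis (adjusted p = 0.0266), epidermis above cortex (0.0167) and endodermis above stele (0.0292), and with salt epidermis became the highest. Several neighbours in the order were not separated: UGT76C1 differed by 1.01-fold between its highest populations, columella and cortex, and UGT74F1 by 1.01-fold between protophloem and endodermis.

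**Figure D5:**
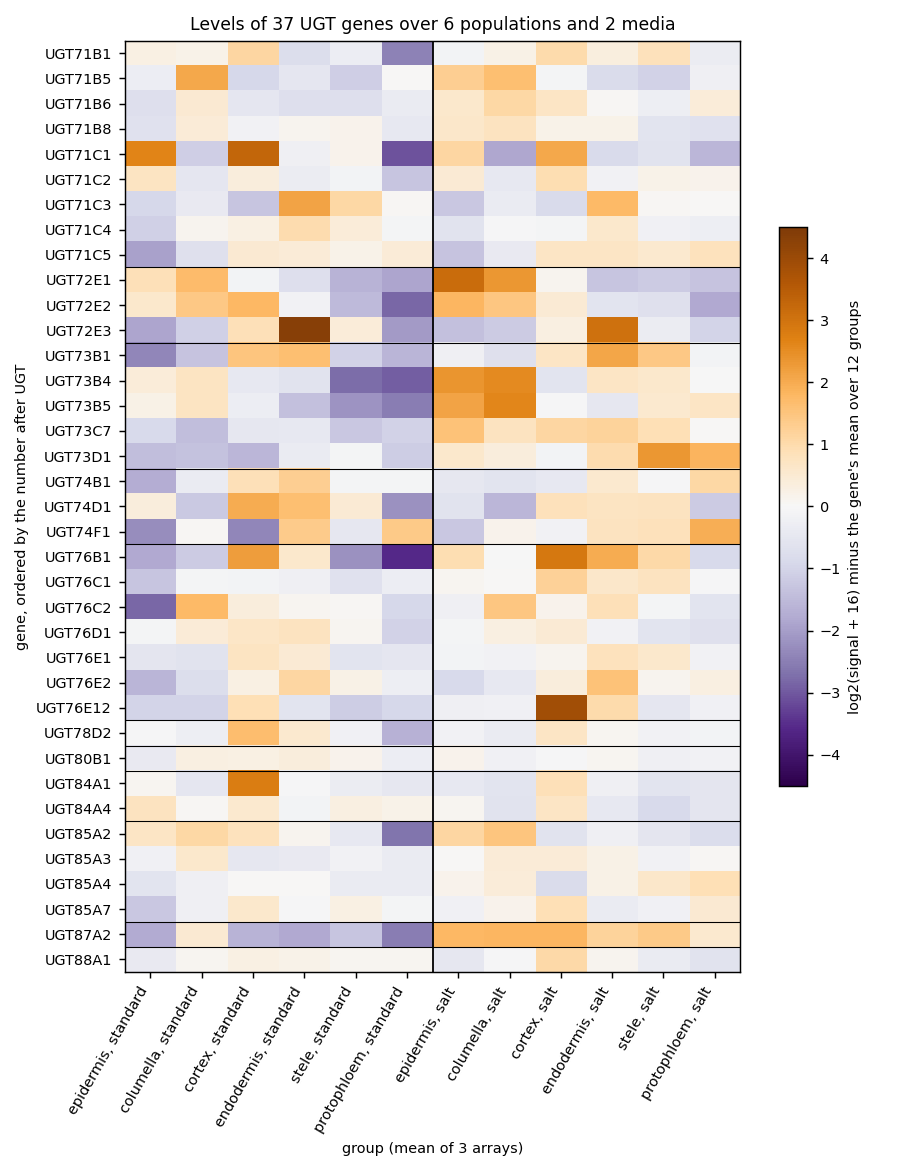
Level of each of the 37 tested UGT genes (rows) in the 12 groups (columns, standard medium left of the black line, salt right of it), as the mean of 3 arrays of log2(signal + 16) minus the mean of that gene over the 12 groups. UGT72E3 is highest in endodermis on both media, and the row of UGT87A2 turns from mostly low on standard medium to high with salt.

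UGT genes often lie side by side as tandem copies. By the order of genes in the RefSeq annotation (TAIR10.1), with at most 2 protein-coding genes between neighbours, 31 of the 47 members fell into 13 clusters and 16 stood alone. Of the tested members, 12 of 23 in clusters and 6 of 14 alone rose in the mean response, against 20.8% of all probe sets, and the difference between the clustered and the single genes was not tested. In 9 clusters at least 2 members were tested. UGT73B4 with UGT73B5, UGT73C7 with UGT73D1 and UGT76C1 with UGT76C2 all rose in the mean response, and UGT84A1 and UGT84A4 fell. In the cluster of UGT71C3, UGT71C4 and UGT71C5 the mean changes ran from -0.22 to 0.34, and in that of UGT71C1 and UGT71C2 they were -0.57 ± 0.34 and 0.38 ± 0.18, neither called. The sequences of the probes were not analysed here, so signal from a close copy cannot be told from that of the member itself.

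Relatives under other symbols or on shared probe sets were kept out of the counts above. GT72B1, the enzyme also called UGT72B1, rose by 0.95 ± 0.22 (SE, adjusted p = 0.00072) in the mean, and SGT, also called UGT80A2 and active on sterols like UGT80B1, had -0.01 ± 0.12 (adjusted p = 0.929) in the mean but fell in cortex, -1.05 ± 0.28 (SE, adjusted p = 0.00462), with an interaction (adjusted p = 0.0209). UF3GT, also called UGT79B1 and active on anthocyanins, was called in epidermis (1.70 ± 0.38). The probe set shared by UGT73B2 and UGT73B3 rose by 1.83 ± 0.19 (adjusted p = 5.56e-09), with its largest change in stele (3.11) and no call in cortex (0.64, adjusted p = 0.288) or endodermis (0.61). The one shared by UGT89B1 and AT1G73885 rose by 1.14 ± 0.10 (adjusted p = 9.81e-11). Of 20 beta-glucosidases with a BGLU symbol, the enzymes that reverse the reaction, 13 were tested, and 5 rose in the mean response, against 20.8% of all probe sets, while 0 fell (1 at an unadjusted p under 0.05 in limma), against 28.8%. BGLU25 (1.42 ± 0.15) and BGLU46 (1.26 ± 0.18), the latter a hydrolase of monolignol glucosides, changed most. Of 21 genes of UDP-glucose supply only USP had a probe set of its own, and it fell by 0.40 on the log2 scale (adjusted p = 0.00357). Of 45 genes of acceptor pathways only CHIL and DFR, both of the flavonoid pathway, had one, and both fell in the mean response, CHIL by 1.84 and DFR by 0.42 on the log2 scale. DFR differed between populations (interaction adjusted p = 0.00565): it rose in cortex, by 0.94 ± 0.32 (SE, adjusted p = 0.0207), and was lower in protophloem, -1.23 ± 0.32 (SE, adjusted p = 0.00557).

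The 10 members that were not tested were UGT72B3, UGT73C1, UGT73C2, UGT76E11, UGT78D1, UGT78D3, UGT84A3, UGT84B1, UGT84B2 and UGT85A5. Each exceeded the 40th percentile on 0 to 2 of the 36 arrays, and the highest signal of any of them was 96.9, for UGT85A5 in columella on standard medium. No detection calls were used here, and whether signals this low stand above background cannot be said.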

How the data were processed

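The deposited values are linear intensities, 1 per probe set and array, made by the authors with MAS5, per the submitters' processing notes. They come from 36 ATH1 arrays after a two-cycle amplification, in 12 groups of 3. No source used here gives the version of MAS5, its scaling target or detection calls, and the equal trimmed means were checked on the deposited intensities. Probe sets were named from GEO's platform annotation with symbols updated through RefSeq (TAIR10.1). Of 22746 probe sets, 13513 had 1 gene, 503 several and 8730 none, so 11 of 58 RefSeq genes with a UGT symbol had no probe set of their own and were not analysed here.

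Signals were turned into log2(signal + 16), and 17633 probe sets above the 40th percentile of the array on at least 3 arrays were fitted with limma 3.58.1 in R 4.3.3 (12 group means, 24 residual degrees of freedom, eBayes with a trend). Benjamini-Hochberg adjustment ran over all of them, with a threshold of 0.05. The 16 understates the change of low signals. The fitting code was checked on simulated data. Arrays of the same replicate number were compared by the correlation of their deviations from the group means in 18 pairs (-0.115 to 0.445). Only 8 pairs exceeded 0.1, so the numbers were not taken to pair the arrays. The number of arrays limits the precision.

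Members shown by array were those called in the mean response with a log2 change of at least 1 and 1 sign in all populations, the top 3 non-overlapping rises and falls per population, the 5 largest interaction F, members at least 2-fold above every other population on standard medium, and members with a known hormone, monolignol, flavonoid or sterol role. Of 27 genes listed for such roles, 17 had a probe set of their own. Array values of other members were chosen after their values were seen. The members and lists were chosen with earlier results of these data known. Alternatives were 1 or 64 added to the signal, no filter or the 60th percentile, quantile normalization, the replicate number as a block, the GAPDH ratio as a covariate, no trend, each population's own 6 arrays, replicates 1 and 2 only, and each array left out in turn. Sequences of probes, promoters and proteins were not used here.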

Additional observations from a re-analysis of the deposited data

Results flagged for a closer look

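The F-test of unequal salt responses over the 6 populations passed the threshold for 18 members. The adjusted p was 0.000334 for UGT73B4, 0.000494 for UGT85A2, 0.000662 for UGT72E1, 0.000835 for UGT76C2 and 0.000893 for UGT74F1. It was 0.00156 for UGT78D2, 0.00253 for UGT74B1, 0.00256 for UGT73B1 and 0.00612 for UGT87A2. For UGT71B5 it was 0.011, for UGT76B1 0.0115, for UGT71B8 0.0156 and for UGT76E12 0.0185. UGT73B5 and UGT88A1 both had 0.0193, UGT76C1 had 0.026, UGT85A4 0.0374 and UGT80B1 0.0461. The F-test of UGT80B1 held in 19 of 45 alternative fits, that of UGT85A4 in 35, that of UGT88A1 in 38 and that of UGT76E12 in 40. The test of UGT76E12 was lost with 1 added to the signal and without replicate 1 or 2 of cortex on either medium. UGT71B8 had passed the filter through salt arrays alone.

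Relatives outside the family's rule also moved with salt. GT72B1 rose by 0.95 in the mean response on the log2 scale, the probe set shared by UGT73B2 and UGT73B3 by 1.83, and the one shared by AT1G73885 and UGT89B1 by 1.14.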

How the results depend on the processing

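Of 81 calls of single members in the mean response and in the 6 populations, none changed sign under any alternative, and 4 were lost with 1 added to the signal, 7 with 64, 8 with quantile normalization, 21 with the GAPDH ratio and 5 with replicates 1 and 2 only. With the replicate number as a block 0 were lost and 4 gained, but the members whose response differed from the mean of the other 5 went from 6 to 10 in protophloem and from 1 to 2 in endodermis. The cause was not tested.

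The endodermis count of 2 became 1 with 1 added, 4 with 64 and 13 with replicates 1 and 2. The stele difference from the other 5 (1 member) became 0 with 1 or 64 added, without a filter and with the stricter one, and 8 with replicates 1 and 2. The endodermis difference (1) became 0 with 64 added, without a filter and with quantile normalization, 2 with the GAPDH ratio and 7 with replicates 1 and 2. With the GAPDH ratio the cortex count of 13 became 6, that of protophloem 9 in place of 14, and the protophloem difference 0 in place of 6, where UGT71B1 also reversed from 1.76 to -0.43. Replicates 1 and 2 alone gave 8 in columella and 22 in cortex. Of all 17633 probe sets they called 6047 and 8691 there, in place of 2503 and 6719, and 1968 in endodermis, in place of 444. They gave differences from the other 5 for 14 members in epidermis, 4 in columella and 10 in protophloem. No share of all probe sets is given for such differences under the alternatives. The changes in those counts can therefore not be read as particular to the members. In fits of each population's own 6 arrays epidermis had 27 in place of 16, with 8046 of all 17633 probe sets called in place of 4983. Protophloem had 10 in place of 14, cortex 11 in place of 13 and stele 10 in place of 11. Columella had 4 in place of 5 and endodermis 3 in place of 2. In all of these fewer probe sets of any kind were called. The fits lost 12 of the 61 population calls, among them UGT73D1 in stele and columella, UGT84A1 and UGT85A2 in cortex and UGT84A4 in stele.

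Leaving out 1 array gave 18 to 23 in the mean response, 13 to 17 in epidermis, 2 to 5 in columella, 8 to 14 in cortex, 1 to 4 in endodermis, 9 to 12 in stele and 8 to 14 in protophloem. The interaction ranged from 15 to 23 and the standard medium from 29 to 34. Differences from the other 5 ranged from 4 to 8 in epidermis, 0 to 2 in columella, 9 to 14 in cortex, 0 to 2 in endodermis, 0 to 5 in stele and 2 to 10 in protophloem. Members near background, such as UGT71B6, UGT71B8, UGT76E1 and UGT84A1, have changes whose size depends on the number added to the signal.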
